A study of Rattus norvegicus with 11 samples.

Results

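The 9 genes that mark or act in blood vessel endothelium (Pecam1, Cdh5, Cldn5, Sox18, Kdr, Flt1, Tek, Emcn and Ehd3) and Vegfa, the ligand of the VEGF receptors, were described across rat renal cortex. The members were chosen by name: every non-control probe whose gene was 1 of these 10 was taken. This gave 13 of the 30367 probes on the array, for 10 of the 15168 genes that carried 1 symbol, with 4 probes for Vegfa and 1 for each other gene. All 13 probes were well above background on all 11 arrays and none was saturated. Some were dim: Ehd3 read 54 to 254 signal units, and the lowest readings of Cdh5 and Sox18 were 143 and 145. RNA came from SD rats in 4 groups. DM+RYGB rats (2 arrays) had type 1 diabetes induced with streptozotocin and, 4 weeks later, gastric bypass surgery (RYGB, Roux-en-Y), which reroutes food from a small stomach pouch into the jejunum. DM+Sham rats (3 arrays) had the same diabetes and a sham operation, Control+RYGB rats (3 arrays) had the bypass without diabetes, and Control+Sham rats (3 arrays) had the sham operation without diabetes. Cortex was collected 4 weeks after surgery in all 4 groups. Streptozotocin kills insulin-producing cells, so the model is one of insulin deficiency. The labels used here give neither age nor sex and do not say whether arrays of a group came from separate animals, so the p-values below measure the spread between these arrays, which may be technical.

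VEGF-A is a secreted growth factor that keeps the fenestrated capillaries of the kidney open and alive, and in the glomerulus it is made mainly by podocytes, the epithelial cells that wrap the capillaries. It acts on endothelial cells through the receptor tyrosine kinase VEGFR2, encoded by Kdr, whereas VEGFR1, encoded by Flt1, binds it tightly but signals weakly and so acts largely as a trap. A parallel pathway runs from the angiopoietins to Tie2, encoded by Tek, and steadies mature vessels. Endothelial cells are joined by VE-cadherin (Cdh5), claudin-5 (Cldn5) and PECAM-1 (Pecam1), and early endothelial transcription is set by ETS and SOXF factors, among them Sox18.

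Promoter sequence is shown for the members with a RefSeq window that ends before the transcript. Among the members, Cldn5 carried the largest changes described below, while Ehd3 and Vegfa were among those higher in diabetic sham rats. Each line gives the 250 bases before the gene's RefSeq start in the GRCr8 assembly, 5′ to 3′ on the gene's strand. The Cldn5 window lies at chr11:95718599-95718848 on the minus strand, the Ehd3 window at chr6:27417446-27417695 on the minus strand and the Vegfa window at chr9:22452604-22452853 on the plus strand. Capitals mark GGAA or, for a match on the other strand, TTCC, the core that ETS factors bind, and these 2 motifs cannot overlap.
Cldn5: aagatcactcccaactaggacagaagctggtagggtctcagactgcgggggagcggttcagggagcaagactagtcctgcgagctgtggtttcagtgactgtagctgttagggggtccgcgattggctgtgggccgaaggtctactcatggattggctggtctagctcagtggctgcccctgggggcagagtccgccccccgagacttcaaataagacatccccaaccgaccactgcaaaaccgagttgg
Ehd3: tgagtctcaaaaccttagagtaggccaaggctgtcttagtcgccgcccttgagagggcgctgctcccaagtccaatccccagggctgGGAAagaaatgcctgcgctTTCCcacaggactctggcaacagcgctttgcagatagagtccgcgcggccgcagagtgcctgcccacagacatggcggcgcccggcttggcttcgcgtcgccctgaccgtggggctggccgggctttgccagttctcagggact
Vegfa: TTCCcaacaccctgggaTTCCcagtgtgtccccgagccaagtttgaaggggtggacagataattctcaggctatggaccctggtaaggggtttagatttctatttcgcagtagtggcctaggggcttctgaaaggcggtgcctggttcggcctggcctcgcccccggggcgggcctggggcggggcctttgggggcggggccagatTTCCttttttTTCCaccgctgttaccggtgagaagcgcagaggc
The Cldn5 window held 0 matches, the Ehd3 window 2 and the Vegfa window 4. Of 33469 RefSeq windows of this length, 93.2% held at least 1 match and 6.77% held none, 77.4% held at least 2 and 34.7% at least 4. A match describes the letters and is no evidence of binding, and the absence of one in the Cldn5 window says nothing about ETS factors at this gene. A second Vegfa window held 2 matches, and windows of Kdr, Flt1 and Emcn held 4, 3 and 6.

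Levels are log2 of the scanner's processed signal minus the 75th percentile of the same array, so 0 is the 75th percentile. That percentile lay between 1541 and 4454 signal units, and 77.7% to 93.5% of probes were well above background on an array. For DM+Sham 2 against DM+Sham 3, and for Control+RYGB 2 against Control+RYGB 3, the difference was smaller than the noise among repeated spots, so each of these pairs was averaged and counted as 1 sample. This left 2 samples of DM+RYGB, 2 of DM+Sham, 2 of Control+RYGB and 3 of Control+Sham. The scaling mattered: with the 75th percentile the median of all probes differed by 0.55 between DM+RYGB and DM+Sham and by 0.29 between Control+RYGB and Control+Sham, against -0.05 and -0.03 with median scaling. A probe was therefore said to rise or fall only where its limma adjusted p was under 0.05 in 1 direction with 75th percentile, median and quantile scaling alike. Values quoted are those of the 75th percentile unless another scaling is named.

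The arrays held the marker transcripts of renal cortex, and some arrays stood apart in markers of other cell types. All 12 proximal tubule markers were well above background on every array. DM+RYGB 2 carried heart muscle transcripts: the 12 heart markers summed to a log2 level of 8.50 there, against 0.14 in DM+RYGB 1 and -0.81 to 0.13 on the other 9 arrays, and Myh6, the cardiac myosin heavy chain, read 5.89 in DM+RYGB 2 and -4.57 in DM+RYGB 1. The 6 urothelial markers summed to -0.93 and -1.33 in DM+RYGB, -2.20 to -2.16 in DM+Sham and -2.47 to -2.04 in Control+RYGB, against 1.11 to 1.22 in Control+Sham. The 8 platelet and red blood cell markers summed to 2.20 on DM+RYGB 1 and 6.03 on DM+RYGB 2, with the other 9 arrays between 3.48 and 5.51. The 6 liver markers summed to 3.51 to 3.76 in Control+RYGB and to 0.88 to 2.40 in the other groups. All Control+RYGB arrays lay at slide position 2, which cannot be told apart from that group. In such bulk RNA, fewer cells of a type and less RNA per cell cannot be told apart.

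**Figure D1:**
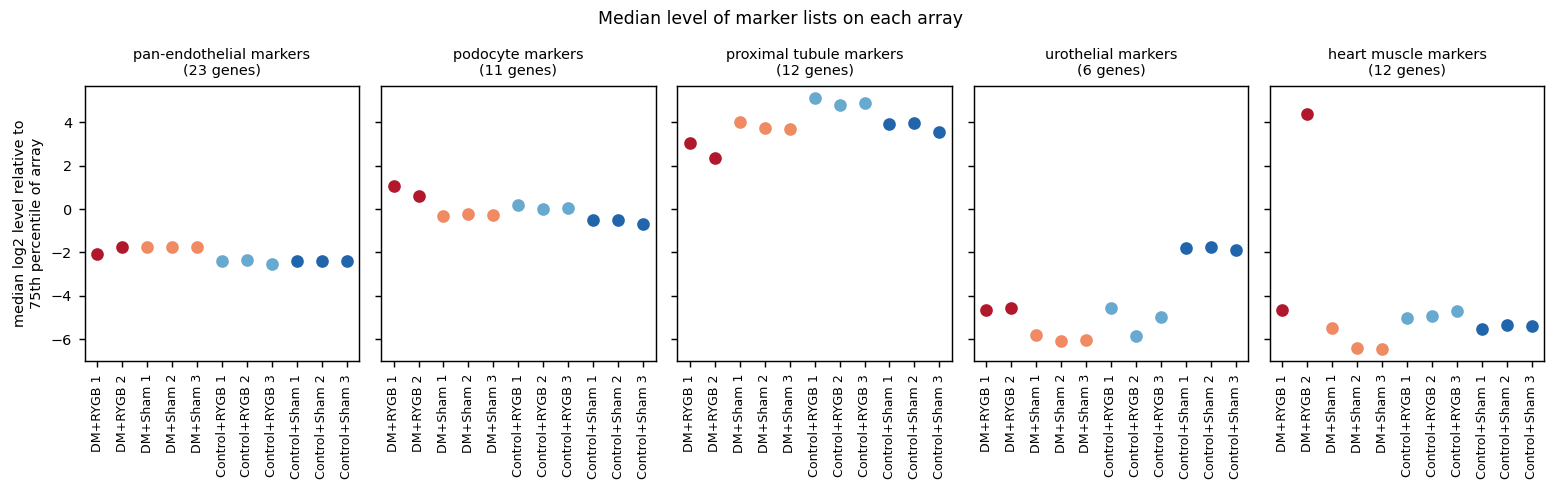
Median log2 level of 5 marker lists on each of the 11 arrays, relative to the array's 75th percentile, with DM+RYGB at the left of each panel. The heart muscle median was 4.39 on DM+RYGB 2 against -4.67 on DM+RYGB 1, and the urothelial median lay between -1.90 and -1.77 on the Control+Sham arrays and between -6.08 and -4.55 on the others.

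The plot of marker lists also shows the pan-endothelial list, 23 genes used as a check of endothelial RNA. Its median level was -2.06 and -1.74 in DM+RYGB, -1.76 to -1.74 in DM+Sham, -2.54 to -2.35 in Control+RYGB and -2.41 to -2.39 in Control+Sham. By this median DM+RYGB 1 sat between DM+Sham and the control groups, and DM+RYGB 2 sat at the DM+Sham level. The sum of the same genes gave another order. It was 4.51 and 4.68 in DM+RYGB, 4.83 to 4.89 in DM+Sham, 4.67 to 4.80 in Control+RYGB and 4.59 to 4.68 in Control+Sham. By the sum DM+RYGB 1 was the lowest array and DM+RYGB 2 lay below DM+Sham.

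**Figure D2:**
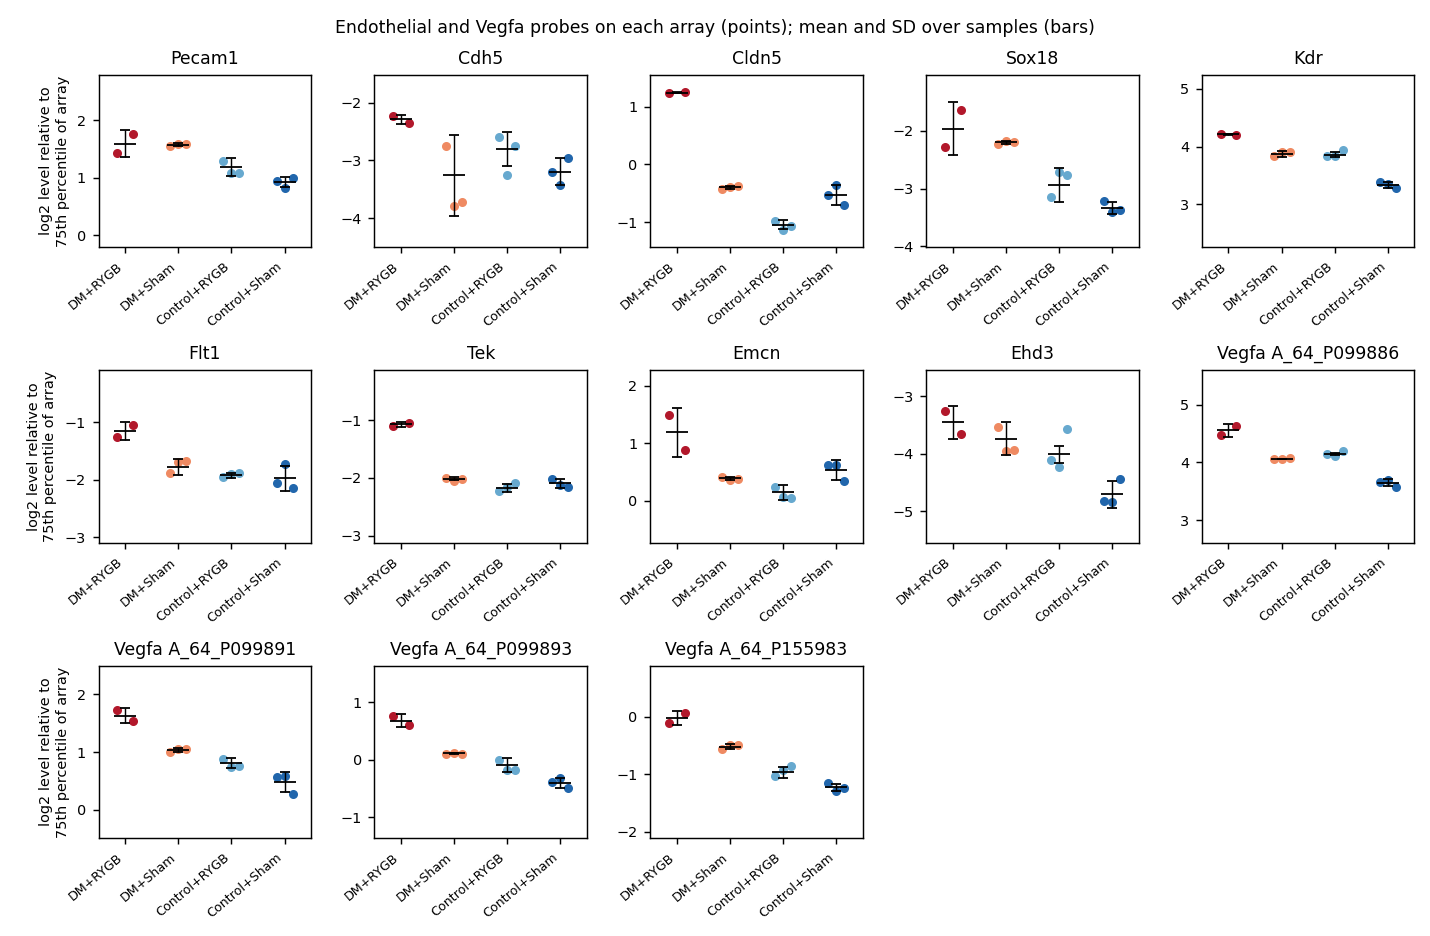
Log2 level of each of the 13 probes on every array (points), relative to the array's 75th percentile, with the group mean and SD over samples in black. Panels share a span of 3 log2 units, and Cldn5 stands out with both DM+RYGB arrays at 1.24 and 1.26 and every other array at or below -0.36.

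Vegfa was lowest in Control+Sham and highest in DM+RYGB with all 4 probes. The probe A_64_P155983 (NM_031836) read -0.12 and 0.05 in DM+RYGB, -0.56, -0.49 and -0.50 in DM+Sham, -1.04, -0.93 and -0.86 in Control+RYGB, and -1.16, -1.29 and -1.23 in Control+Sham. The 4 groups did not overlap with this probe. The brightest probe, A_64_P099886 (NM_031836), read 4.48 and 4.63 in DM+RYGB, 4.06, 4.05 and 4.07 in DM+Sham, 4.14, 4.12 and 4.20 in Control+RYGB, and 3.67, 3.69 and 3.57 in Control+Sham. Here the DM+Sham and Control+RYGB arrays stood in the reverse order. The other probes, A_64_P099891 and A_64_P099893 (both NM_001110334), averaged 1.63 ± 0.13 and 0.68 ± 0.11 in DM+RYGB, against 0.48 ± 0.18 and -0.40 ± 0.08 in Control+Sham (SD, n = 2 and 3). The gene lies at chr9:22452854-22468194 (GRCr8). Podocyte markers moved with it: the 11 genes summed to 5.53 and 5.26 in DM+RYGB, 4.36 to 4.40 in DM+Sham, 4.37 to 4.41 in Control+RYGB and 4.10 to 4.17 in Control+Sham. The part of the podocyte level in the Vegfa differences was not tested.

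Kdr (NM_013062, chr14:32572031-32615204) was likewise lowest in Control+Sham and highest in DM+RYGB. It read 4.22 and 4.20 in DM+RYGB, 3.83, 3.90 and 3.91 in DM+Sham, 3.83, 3.84 and 3.94 in Control+RYGB, and 3.38, 3.35 and 3.28 in Control+Sham. DM+Sham and Control+RYGB overlapped, with means of 3.87 ± 0.05 and 3.86 ± 0.04 (SD, n = 2 each), and both stood above Control+Sham and below DM+RYGB. This order depended on the scaling. DM+RYGB minus DM+Sham was -0.26 with median and -0.20 with quantile scaling, and DM+RYGB minus Control+RYGB was -0.01 and 0.30. Flt1 (NM_019306, chr12:12333050-12504750) read -1.26 and -1.04 in DM+RYGB, -1.88, -1.70 and -1.67 in DM+Sham, -1.95, -1.89 and -1.89 in Control+RYGB, and -2.05, -1.72 and -2.15 in Control+Sham. For this trap receptor the DM+RYGB arrays were highest, and Control+Sham overlapped both DM+Sham and Control+RYGB.

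Tek stood apart in diabetic bypass rats. The probe (NM_001105737, chr5:114722815-114849535) read -1.11 and -1.04 in DM+RYGB, -2.0, -2.05 and -2.02 in DM+Sham, -2.22, -2.16 and -2.09 in Control+RYGB, and -2.01, -2.11 and -2.15 in Control+Sham. The DM+RYGB arrays did not overlap any other group, while DM+Sham and Control+RYGB each overlapped Control+Sham.

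Of the junction genes, Cldn5 differed most. Claudin-5 seals the tight junctions of endothelial cells, but bulk cortex does not show which cells its transcript came from. Podocyte markers were also highest in DM+RYGB, with sums of 5.53 and 5.26, and their part in the Cldn5 differences was not tested. The Cldn5 probe (NM_031701, chr11:95717172-95718598) read 1.24 and 1.26 in DM+RYGB, -0.42, -0.39 and -0.38 in DM+Sham, -0.99, -1.14 and -1.07 in Control+RYGB, and -0.53, -0.36 and -0.70 in Control+Sham. DM+RYGB was highest and Control+RYGB lowest, without overlap with the sham groups, and the sham groups overlapped each other. Pecam1 (NM_031591, chr10:92090263-92152002), an adhesion molecule of endothelial cells, platelets and leukocytes, read 1.43 and 1.75 in DM+RYGB, 1.55, 1.59 and 1.60 in DM+Sham, 1.29, 1.08 and 1.08 in Control+RYGB, and 0.95, 0.83 and 1.00 in Control+Sham. It separated diabetic from control rats, and the DM+RYGB arrays lay on both sides of the DM+Sham arrays. Cdh5 (NM_001107407, chr19:821875-860931) was the most variable member, at -2.24 and -2.34 in DM+RYGB, -2.76, -3.78 and -3.73 in DM+Sham, -2.59, -3.26 and -2.76 in Control+RYGB, and -3.20, -3.43 and -2.96 in Control+Sham. DM+RYGB lay above the other groups, and the DM+Sham arrays spanned the range of Control+Sham, with an SD of 0.71 over 2 samples.

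Sox18, a transcription factor of developing blood and lymphatic vessels, separated diabetic from control rats. It (NM_001024781, chr3:189163000-189164802) read -2.28 and -1.64 in DM+RYGB, -2.22, -2.17 and -2.19 in DM+Sham, -3.15, -2.72 and -2.76 in Control+RYGB, and -3.22, -3.40 and -3.38 in Control+Sham. The DM+RYGB arrays lay on both sides of DM+Sham. Among bypassed rats the Sox18 difference with diabetes was 0.98, and it missed the threshold with median scaling (0.62, limma adjusted p = 0.126). Emcn (NM_001004228, chr2:228564445-228644370) encodes endomucin, a sialomucin of capillary and venous endothelium, and read 1.49 and 0.89 in DM+RYGB, 0.41, 0.36 and 0.38 in DM+Sham, 0.24, 0.06 and 0.05 in Control+RYGB, and 0.63, 0.63 and 0.34 in Control+Sham. DM+RYGB was highest and Control+RYGB lowest, as for Cldn5, with a wide gap between the DM+RYGB arrays. Ehd3 (NM_138890, chr6:27392709-27417445), an endocytic trafficking protein enriched in glomerular endothelium of mice, read -3.25 and -3.65 in DM+RYGB, -3.54, -3.96 and -3.93 in DM+Sham, -4.11, -4.23 and -3.57 in Control+RYGB, and -4.83, -4.84 and -4.43 in Control+Sham. Control+Sham was lowest with no overlap, and the other groups overlapped by array.

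Diabetes in sham-operated rats went with higher levels of 4 members and with no lower one. Sox18 rose 2.20-fold (log2 difference 1.14, SE 0.21, limma adjusted p = 0.0152), Ehd3 1.95-fold (0.96, SE 0.21, adjusted p = 0.0241), Pecam1 1.57-fold (0.65, SE 0.14, adjusted p = 0.0219) and Vegfa by the probe A_64_P155983 1.63-fold (0.70, SE 0.11, adjusted p = 0.0075). With the 75th percentile alone 8 of the 13 probes passed, against 17.3% of all probes tested, and 4 rose with all 3 scalings, against 12.7% of all probes (6.23% higher and 6.51% lower). Kdr was 0.53 higher (SE 0.09, adjusted p = 0.011) and passed neither with median scaling (adjusted p = 0.0514) nor with quantile scaling (adjusted p = 0.0522). The other 3 Vegfa probes were 0.41 to 0.55 higher. Tek (0.08), Cldn5 (0.13), Flt1 (0.19), Emcn (-0.14) and Cdh5 (-0.06) passed under no scaling, with 95% intervals of -0.15 to 0.31 for Tek, -0.17 to 0.42 for Cldn5 and -0.79 to 0.67 for Cdh5. The 9 endothelial members had a median of 0.19, against 0.03 for all probes.

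These differences had the same sign within each day on which both groups were scanned, but did not pass in every fit. Within scan days 2 and 3, Sox18 differed by 1.19 and 1.21, Pecam1 by 0.72 and 0.59, Ehd3 by 1.30 and 0.48, and Vegfa A_64_P155983 by 0.73 and 0.75. With scan day as a block, which left 2 residual degrees of freedom, the limma adjusted p was 0.067 for Sox18, 0.18 for Pecam1, 0.2 for Ehd3 and 0.11 for Vegfa A_64_P155983. DM+Sham 2 and 3 were scanned on different days and were not averaged in that fit, so its p-values treat these near-identical arrays as separate samples. With normexp background correction none of the 13 passed, as for Sox18 (0.89, adjusted p = 0.16) and Ehd3 (0.56, adjusted p = 0.98). Without the averaged DM+Sham 2 and 3, Sox18 was 1.12 higher (adjusted p = 0.094), Vegfa A_64_P155983 0.67 (adjusted p = 0.07), Ehd3 1.16 (adjusted p = 0.061) and Pecam1 0.63 (adjusted p = 0.13). Without DM+Sham 1 the values were 1.15 for Sox18 (adjusted p = 0.065), 0.76 for Ehd3 (adjusted p = 0.12) and 0.67 for Pecam1 (adjusted p = 0.087). Without Control+Sham 2 they were 1.10 (adjusted p = 0.056), 0.89 (adjusted p = 0.081) and 0.60 (adjusted p = 0.075), and without Control+Sham 1 Ehd3 (0.90, adjusted p = 0.085) and Pecam1 (0.66, adjusted p = 0.073) missed the threshold. The number of members passing fell to 0 without the averaged DM+Sham 2 and 3, to 1 without DM+Sham 1, to 2 without Control+Sham 2, to 3 without Control+Sham 1 and to 5 without Control+Sham 3. Urothelial markers moved with this comparison, since 5 of 6 fell with diabetes. Platelet and red blood cell markers, of which 2 of 8 rose, summed to 4.76 to 5.24 in DM+Sham, against 3.48 to 3.66 in Control+Sham, and 2 of 11 leukocyte markers fell. The part of these cell types in the differences was not tested.

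**Figure D3:**
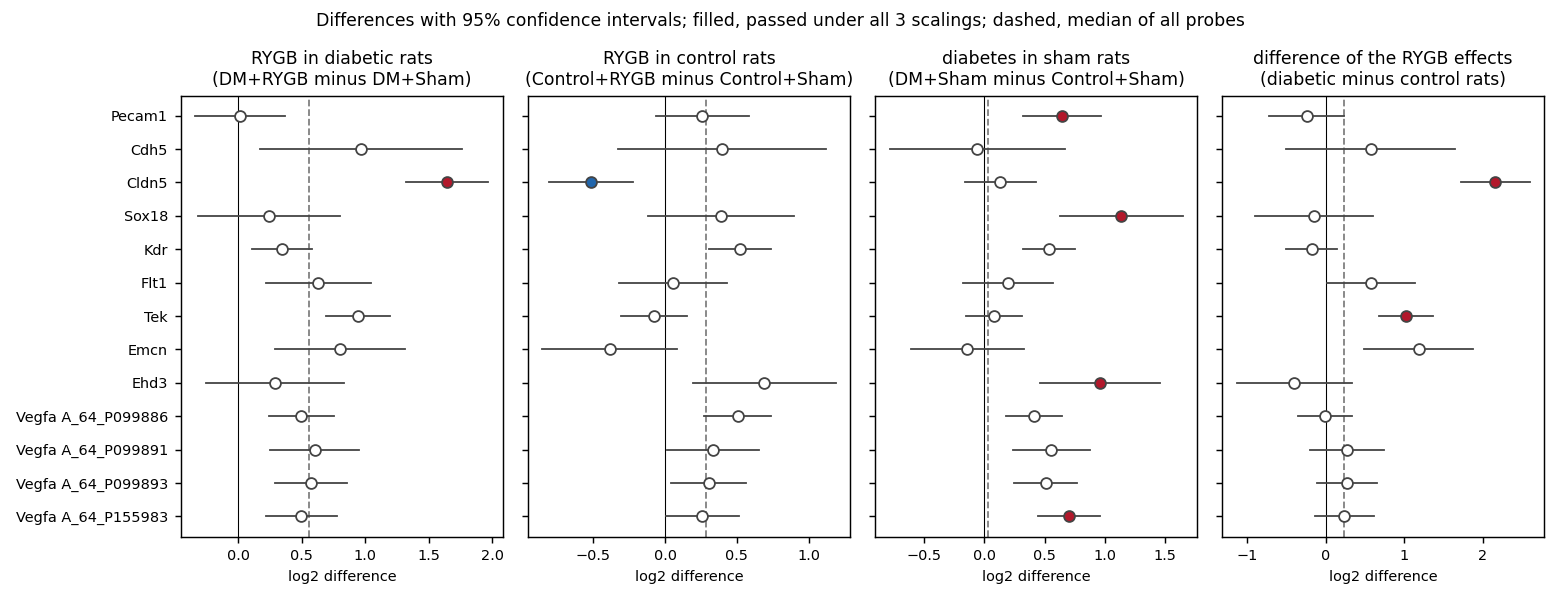
Log2 differences of the 13 probes with 95% confidence intervals in 4 comparisons, with probes passing under all 3 scalings filled (red higher, blue lower) and the median of all probes dashed. Cldn5 at 1.65 is the one filled point for RYGB in diabetic rats and at -0.52 the one for RYGB in control rats, while 4 other probes are filled for diabetes in sham rats.

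Bypass in diabetic rats went with a rise of Cldn5, and no other member passed under all 3 scalings. Cldn5 averaged 1.25 ± 0.01 in DM+RYGB and -0.40 ± 0.03 in DM+Sham (SD, n = 2 each), a 3.13-fold rise (log2 difference 1.65, SE 0.14, adjusted p = 0.000548). It was 1.04 with median and 1.56 with quantile scaling, 1.64 without DM+RYGB 2 (adjusted p = 0.0015) and 1.66 without DM+RYGB 1 (adjusted p = 0.0013), so it was as large without the array that carried heart transcripts. Within scan day 4, which held 1 array of each group, it was 1.61, and with scan day as a block its limma adjusted p was 0.031. That fit counted the near-identical DM+Sham 2 and 3 as separate samples. Set against the median of all probes, Cldn5 was 1.09 higher. Tek was 0.94 higher (SE 0.11, adjusted p = 0.00124), 0.39 above the median of all probes, and missed the threshold with median scaling (0.34, adjusted p = 0.0798).

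The share of probes past the threshold was large for all genes in this comparison. With the 75th percentile 10 of the 13 members passed, against 52.8% of all probes, and with 3 scalings 1 passed, against 20.9% (10.2% higher and 10.8% lower). All 13 differences were positive with the 75th percentile, but 7 turned negative under another scaling, those of Pecam1, Sox18, Kdr, Ehd3 and 3 Vegfa probes. Relative to the median of all probes, the 4 Vegfa probes lay between -0.06 and 0.05, Kdr at -0.21, Flt1 at 0.08, Cdh5 at 0.41 and Emcn at 0.24. Pecam1 was 0.02 higher with the 75th percentile and 0.59 lower with median scaling (median-scaled difference -0.59, adjusted p = 0.0268). The 9 endothelial members had a median of 0.63, with 5 of 9 above the 0.55 of all probes. Without DM+RYGB 2 the count with 3 scalings was again 1, against 23.2% of all probes. With the 75th percentile the count fell to 5 without DM+Sham 1 and to 3 without the averaged DM+Sham 2 and 3.

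**Figure D4:**
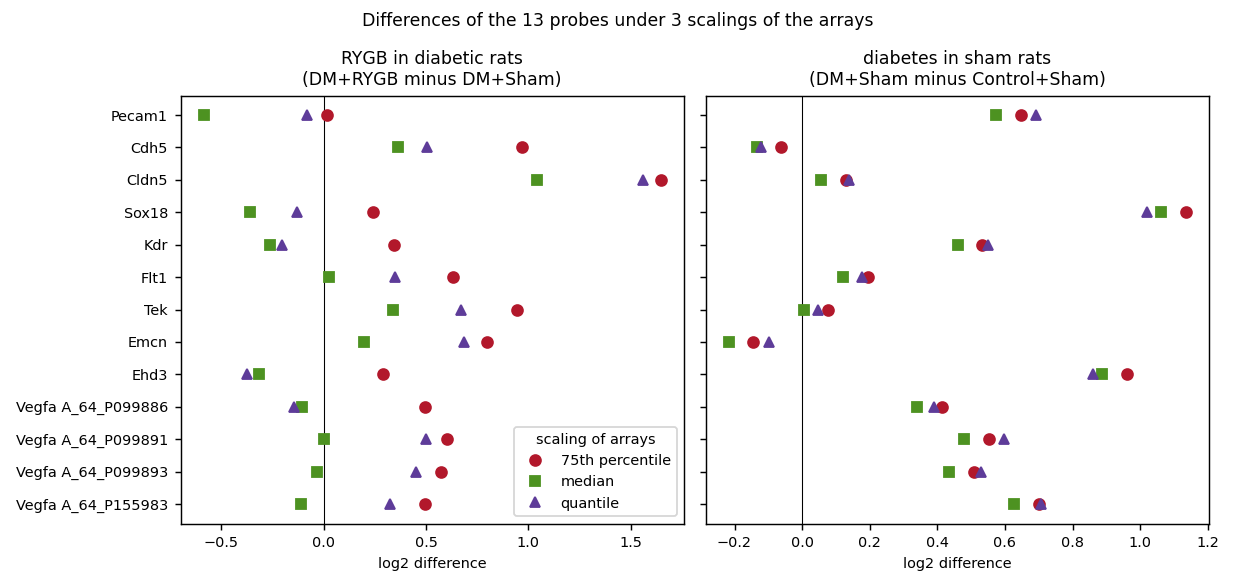
Log2 differences of the 13 probes with arrays scaled by the 75th percentile (circles), the median (squares) or quantiles (triangles). For RYGB in diabetic rats the median-scaled points lie to the left, with Pecam1 at -0.59 and Cldn5 still at 1.04, whereas for diabetes in sham rats the 3 scalings nearly coincide.

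Bypass in control rats went with a lower Cldn5, and no member rose. Cldn5 averaged -1.05 ± 0.08 in Control+RYGB (SD, n = 2) and -0.53 ± 0.17 in Control+Sham (SD, n = 3), a log2 difference of -0.52 (SE 0.12, adjusted p = 0.0276, fold 0.699). With the 75th percentile 4 of the 13 probes passed, against 26.9% of all probes, and with 3 scalings 1 passed, against 12.1% (6.74% higher and 5.38% lower). Kdr was 0.52 higher (SE 0.09, adjusted p = 0.0121), Vegfa A_64_P099886 0.51 (SE 0.10, adjusted p = 0.0159) and Ehd3 0.69 (SE 0.21, adjusted p = 0.0498). None of these passed with median scaling, where Kdr differed by 0.21 and Vegfa A_64_P099886 by 0.19. Emcn was -0.39 (adjusted p = 0.175) and passed with median scaling only (-0.70, adjusted p = 0.046).

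The fall of Cldn5 in control rats rested on few samples. The adjusted p was 0.15 without the averaged Control+RYGB 2 and 3 (difference -0.46), 0.12 without Control+RYGB 1 (-0.57), 0.072 without Control+Sham 2 (-0.43) and 0.086 without Control+Sham 1 (-0.51). No scan day held both groups, and with scan day as a block the difference was -0.52 (adjusted p = 0.41). With normexp correction it was -0.50 (adjusted p = 0.26). The number of members passing was 0 without Control+RYGB 1, 0 without the averaged Control+RYGB 2 and 3, 1 without Control+Sham 1 and 2 without Control+Sham 2. Of the cell type lists, 5 of 6 urothelial markers (median -3.50) and 4 of 13 pericyte, mesangial and smooth muscle markers fell with bypass in control rats. Platelet and red blood cell markers summed to 5.17 to 5.51 in Control+RYGB, against 3.48 to 3.66 in Control+Sham, and none of the 8 passed. The part of these cell types in the fall of Cldn5 was not tested.

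The effect of bypass differed between diabetic and control rats for Cldn5 and Tek. The difference between the 2 effects was 2.16 for Cldn5 (SE 0.18, adjusted p = 0.000964, 95% interval 1.73 to 2.60) and 1.02 for Tek (SE 0.14, adjusted p = 0.00491, 95% interval 0.68 to 1.37). With the 75th percentile 3 of the 13 probes passed this interaction, against 22.4% of all probes, and 2 passed with 3 scalings, against 14.8% (6.52% higher and 8.27% lower). Emcn was the other, at 1.19 (SE 0.29, adjusted p = 0.0301), and missed the threshold with median scaling (0.89, adjusted p = 0.0758). Without DM+RYGB 2, Cldn5 and Emcn passed under all 3 scalings, Emcn at 1.49, and Tek, at 0.99, passed with the 75th percentile (adjusted p = 0.0044) but not under all 3. With scan day as a block the adjusted p was 0.055 for Cldn5 (2.16) and 0.079 for Tek (0.99), and with normexp correction Tek was 1.28 (adjusted p = 0.06). For the other members the differences lay between -0.40 and 0.58, among them Pecam1 (-0.24, 95% interval -0.72 to 0.24), Kdr (-0.18, -0.50 to 0.14) and Vegfa A_64_P099886 (-0.01, -0.36 to 0.34). In this interaction 5 of 6 urothelial markers were higher (median 4.55) and 7 of 12 proximal tubule markers lower (median -2.61). Of 13 pericyte, mesangial and smooth muscle markers 5 were higher and 1 lower, and 2 of 11 podocyte markers were higher. The part of these cell types in the differences of Cldn5 and Tek was not tested.

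Diabetes among bypassed rats went with rises of Cldn5, Tek and 1 of the 4 Vegfa probes. Cldn5 was 4.90-fold higher in DM+RYGB than in Control+RYGB (2.29, SE 0.14, adjusted p = 0.000207), Tek 2.14-fold (1.10, SE 0.11, adjusted p = 0.000882) and Vegfa A_64_P155983 1.92-fold (0.94, SE 0.12, adjusted p = 0.00203). The other 3 Vegfa probes were 0.40 to 0.82 higher and missed the threshold with median scaling, where the brightest, A_64_P099886, differed by 0.04. All 13 probes were higher with the 75th percentile, and Kdr was -0.01 with median scaling. With the 75th percentile 10 passed, against 31.4% of all probes, and with 3 scalings 3 passed, against 17.4% (7.57% higher and 9.81% lower). All 9 endothelial members lay above the median of all probes, 0.27, with a median of 0.77. Of the 23 genes of the pan-endothelial list 6 rose and 1 fell, beside 17.4% of all probes, with a median of 0.67. Without DM+RYGB 2 the median of that list was 0.30. On scan days 4 and 5, Cldn5 differed by 2.23 and 2.36, Tek by 1.11 and 1.09, and Vegfa A_64_P155983 by 0.92 and 0.95. With scan day as a block the limma adjusted p was 0.031 for Cldn5, 0.035 for Tek and 0.039 for Vegfa A_64_P155983, in a fit that did not average the near-identical DM+Sham 2 and 3. Without DM+RYGB 2, Cldn5, Tek and Emcn rose with 3 scalings and Vegfa A_64_P155983 did not (0.85 with the 75th percentile, adjusted p = 0.0032), a count of 3 against 21.0% of all probes. Without Control+RYGB 1, or without the averaged Control+RYGB 2 and 3, 5 of the 13 passed with the 75th percentile. In the same comparison 8 of 12 proximal tubule markers fell (median -2.42), while 8 of 12 thick limb, distal and collecting duct markers (median 1.20), 6 of 11 podocyte markers (median 1.05) and 5 of 13 pericyte, mesangial and smooth muscle markers rose. The part of these cell types in the rises of Cldn5, Tek and Vegfa was not tested.

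Diabetes and bypass together were set against neither. In DM+RYGB against Control+Sham all 13 probes passed with the 75th percentile, against 60.8% of all probes, and 5 rose with 3 scalings, against 23.5% of all probes (11.8% higher). These were Cldn5 (1.78, adjusted p = 0.000218), Sox18 (1.38, adjusted p = 0.00229) and the Vegfa probes A_64_P155983 (1.20, adjusted p = 0.000435), A_64_P099891 (1.16, adjusted p = 0.000904) and A_64_P099893 (1.08, adjusted p = 0.000605). All 13 were higher with the 75th percentile, while Emcn (-0.02) and Pecam1 (-0.01) were lower with median scaling. Kdr was 0.88 higher (adjusted p = 0.000649) and passed neither with median scaling (0.20, adjusted p = 0.223) nor with quantile scaling (0.35, adjusted p = 0.107). Without DM+RYGB 2, Cldn5 and Ehd3 alone of the 13 rose with 3 scalings, a count of 2 against 23.7% of all probes. No scan day held both groups, and with scan day as a block none of the 13 passed, with adjusted p between 0.072 and 0.086 for those 5 probes. The 6 comparisons share groups, so their values are given side by side and not counted as separate evidence.

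Among the other VEGF ligands, receptors and co-receptors, 7 genes were tested; the counts of this and the next lists stand beside the shares of all probes given above. Pgf, the placental growth factor that binds VEGFR1, fell by 1.39 with diabetes in sham rats (adjusted p = 0.0007) and by 1.67 with bypass in control rats (adjusted p = 0.0005), and Vegfd, a ligand of VEGFR3, rose by 1.16 in each. In diabetic rats bypass went with a Pgf difference of 0.61 that did not pass under all 3 scalings and with a fall of Vegfc, another ligand of VEGFR3, by 0.42 (adjusted p = 0.0402). The bypass effects differed for Pgf by 2.28 (adjusted p = 0.0006), for Vegfd by -1.38 and for Vegfc by -0.97. The co-receptor gene Nrp2 passed when DM+RYGB 2 was left out (3.08) and not with both samples. In the list as a whole 1 gene rose and 1 fell with diabetes in sham rats, and none rose and 1 fell with bypass in diabetic rats, or 1 and 1 without DM+RYGB 2, with medians of 0.66 and 0.61 beside 0.03 and 0.55 for all probes.

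Of the angiopoietin-Tie genes other than Tek, 4 were tested. Angpt1, the ligand that activates Tie2, fell by 0.68 (adjusted p = 0.012) and Angpt2, which mostly antagonises it, by 0.52 (adjusted p = 0.0225) with diabetes in sham rats. In diabetic rats Angpt1 rose with bypass by 1.09 (adjusted p = 0.0015), a call lost without DM+RYGB 2, where the difference was 1.09 too, and Angpt2 was 0.76 higher without passing under all 3 scalings. In control rats Angpt2 fell with bypass by 1.15 (adjusted p = 0.0021). The interaction passed for Angpt2 (1.91, adjusted p = 0.001) and Angpt1 (1.10, adjusted p = 0.0076), and without DM+RYGB 2 Angpt1, again at 1.10, no longer passed under all 3 scalings. Tie1, an orphan receptor of the same family, differed by -0.02, 0.39 and -0.15 for diabetes in sham rats, bypass in diabetic rats and bypass in control rats.

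Of the broader endothelial list, 2 of 23 genes passed with bypass in diabetic rats, beside 20.9% of all probes, and 8 of 23 without DM+RYGB 2, beside 23.2%. Of these 23 pan-endothelial genes, 1 rose (Rasip1, a regulator of lumen formation, 1.24, adjusted p = 0.0011) and 1 fell (Plvap, the diaphragm protein of fenestrae, -0.96), with a median of 0.39 beside 0.55 for all probes. Leaving out DM+RYGB 2 left that group with 1 sample, so the spread within it could not be measured. The median of all probes in that fit is not given here. Without DM+RYGB 2, Rasip1 rose and 7 fell: Cd34 (-0.96), Cd93 (-0.75), Cyyr1 (-0.62), Eng (-0.51), Plvap (-0.64), S1pr1 (-0.83) and Sox7 (-1.14), with a median of 0.35. With diabetes in sham rats 1 of 23 rose (Icam2, 0.53, adjusted p = 0.011) with a median of 0.23, and with bypass in control rats none rose and 1 fell (Erg, an ETS factor, -0.64, adjusted p = 0.0129) with a median of 0.00. DM+RYGB 2 enters these comparisons only through the shared spread, and without it 5 rose with diabetes in sham rats (Icam2, Cd34, Cyyr1, Eng and Sox7), beside 20.4% of all probes, and 3 fell with bypass in control rats (Erg, Cd93 and Ramp2), beside 18.9%. In the interaction 3 were higher and 1 lower, against 1 and 7 without DM+RYGB 2.

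**Figure D5:**
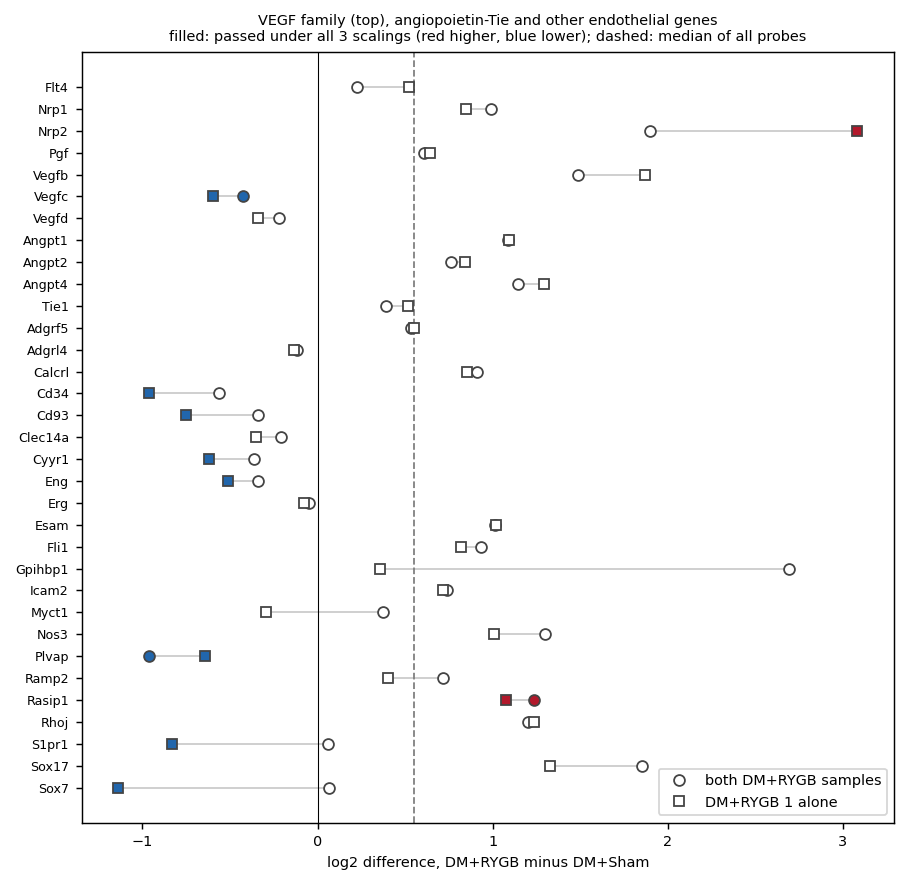
Log2 differences of DM+RYGB minus DM+Sham for other VEGF family, angiopoietin-Tie and pan-endothelial genes, with both DM+RYGB samples (circles) and with DM+RYGB 1 alone (squares, which cover circles at nearly the same value); filled symbols passed under all 3 scalings and the dashed line is the median of all probes. Rasip1 is filled red both ways, and Sox7 and S1pr1 are filled blue only without DM+RYGB 2.

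Genes of arteries and of Notch and tip cells gave calls in both directions. Of 16 arterial, venous and junction genes 2 rose with bypass in diabetic rats, the connexin gene Gja5 (1.85, adjusted p = 0.0011) and Sema3g (1.82, adjusted p = 0.0014), and 1 fell, beside 20.9% of all probes. With DM+RYGB 2 left out, 3 rose and 2 fell, with a median of 0.25 in place of 0.70. In control rats Gja4, another arterial connexin, fell by 0.84 (adjusted p = 0.0134), and its interaction was 1.83 (adjusted p = 0.0032). With diabetes in sham rats Ocln, a tight junction protein of epithelia and endothelia, rose by 1.04 (adjusted p = 0.0076). Of 11 Notch and tip cell genes 2 rose with bypass in diabetic rats, Dll4 (1.41, adjusted p = 0.0037), the Notch ligand of arterial and tip cells, and Hes1 (2.92, adjusted p = 0.0049), a Notch target, and 1 fell. The call of Dll4 was lost without DM+RYGB 2 at a difference of 1.41, where 2 rose and 2 fell, and the median was 0.39 in place of 0.77. Hes1 rose with bypass in control rats too, by 3.04 (adjusted p = 0.0089).

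Signalling genes downstream of VEGFR2 moved in both directions. Of 12 tested, 2 fell with diabetes in sham rats, Sh2d2a, an adaptor that binds VEGFR2 (-1.23, adjusted p = 0.0046), and Rcan1, a calcineurin regulator (-1.16, adjusted p = 0.007). In diabetic rats bypass went with a rise of Sh2d2a by 2.09 (adjusted p = 0.0006) and with 2 falls, among them Ptk2, the focal adhesion kinase gene (-1.12, adjusted p = 0.0009). In control rats 1 rose (Hspb1, a small heat shock protein gene, 1.81) and 1 fell. Sh2d2a and Ptk2 also passed the interaction, at 2.06 and -0.99. These counts were again 1 rise and 2 falls without DM+RYGB 2 for bypass in diabetic rats and 1 higher and 1 lower in the interaction.

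Hypoxia genes, which include inducers of Vegfa, gave both rises and falls. Of 21 tested, 2 rose with diabetes in sham rats, Epas1 (HIF-2 alpha, 0.58, adjusted p = 0.013) and Ankrd37 (0.78, adjusted p = 0.0173), and 2 fell, the glycolysis regulator Pfkfb3 (-1.37, adjusted p = 0.0008) and the mTORC1 inhibitor Ddit4 (-1.02, adjusted p = 0.0057). With bypass none rose and 2 fell in diabetic rats, Ndrg1 (-1.26, adjusted p = 0.0022) and Vhl, whose protein marks HIF subunits for breakdown (-0.62, adjusted p = 0.0091), and none rose and 2 fell in control rats, Pfkfb3 (-1.34) and Ddit4 (-0.87). The list medians were 0.05, 0.31 and 0.30 beside 0.03, 0.55 and 0.29 for all probes. In the interaction 2 were higher, Pfkfb3 (1.65) and Ddit4 (1.18), and 3 lower, Ndrg1 (-2.02), Vhl (-1.07) and Hif1a, which encodes the other oxygen-regulated subunit (-0.91, adjusted p = 0.0093). With DM+RYGB 2 left out, none rose and 3 fell with bypass in diabetic rats, and 2 were higher and 5 lower in the interaction.

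Of the endogenous inhibitors of angiogenesis, 3 of 7 fell and none rose with bypass in diabetic rats: Serpinf1, which encodes PEDF (-2.66, adjusted p = 0.0002), Timp3, which blocks VEGF-A from VEGFR2 (-0.88, adjusted p = 0.0064), and Col18a1, the parent of endostatin (-0.66, adjusted p = 0.0131). In control rats 2 fell, Sema3a (-0.89, adjusted p = 0.0102) and Col18a1 (-0.75, adjusted p = 0.0147). None passed with diabetes in sham rats. The interaction was -2.93 for Serpinf1 (adjusted p = 0.0004), 1.35 for Sema3a, -0.97 for Timp3 and -0.79 for Thbs1. The counts without DM+RYGB 2 were again 3 falls and no rise in diabetic rats, and in the interaction 1 was higher and 2 lower, against 1 and 3 with both samples.

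Markers of vessel beds and of neighbouring cells shifted in the same comparisons. Of 8 glomerular and vasa recta endothelial markers, 3 rose and 3 fell with bypass in diabetic rats, with Gata5 at 1.62, Aqp1 at -1.55 and Slc14a1 at -1.32, and 1 rose and 3 fell without DM+RYGB 2. Aqp1 is also made by proximal tubule. Of 6 lymphatic markers 2 rose with diabetes in sham rats, Ccl21 (0.99, adjusted p = 0.0232) and Prox1 (0.88, adjusted p = 0.0268), and with bypass in control rats Prox1 (-1.72) and Lyve1 (-0.92) fell while Reln rose (0.90). Of 11 podocyte markers 3 rose with bypass in diabetic rats, among them Nphs1 (nephrin, 2.03, adjusted p = 0.0007) and Ptpro (1.29, adjusted p = 0.002), and 5 rose without DM+RYGB 2. Of 13 pericyte, mesangial and smooth muscle markers 2 rose and 2 fell with bypass in diabetic rats, with Myh11 at 1.90 and Pdgfra at -1.10, and 3 rose and 2 fell without DM+RYGB 2. Of 12 thick limb, distal and collecting duct markers 2 rose with bypass in diabetic rats (median 1.00), and 4 rose without DM+RYGB 2. Of 12 proximal tubule markers 7 fell and none rose with bypass in diabetic rats, with Slc4a4 at -3.96 and Slc2a2 at -3.70, and 7 fell without DM+RYGB 2. The part of these cell types in the differences of the endothelial genes was not tested.

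The members fell into a few patterns over the 9 samples, given here as a description, since the samples share groups. Kdr and Vegfa (by its brightest probe) had a Pearson r of 0.978, Cldn5 and Tek 0.974 and Pecam1 and Sox18 0.930, and the lowest pair was Pecam1 and Emcn at 0.266. Among 14482 probes well above background on all arrays, the 5 most like Vegfa were those of Pik3r1 (0.992), Kcmf1 (0.983), Syndig1 (0.982), Fkbp14 (0.982) and Fas (0.980). Those most like Kdr were Apba2 (0.985), Cbfa2t3 (0.981), Tfeb (0.980), Cntfr (0.980) and C1qtnf1 (0.979). Those most like Pecam1 included Dnajc28, Anks1a and Atp5mc2 (each 0.976) and Hadha (0.963).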

How the data were processed

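Renal cortex RNA was measured on 11 single-colour Agilent Rat 4x44K arrays. Per the file headers, the authors used Agilent Feature Extraction 11.0.1.1 to turn scans into the deposited, background-subtracted signal intensity values; the deposited table of log2 values had every column median at 7.07, tracked the scanner's log2 signals (r of 0.989 to 0.997 by array), and was used as an alternative. Its normalization is not given in the sources used here. 0 per-sample columns belonged to no sample.

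From these, the log2 processed signal minus each array's 75th percentile was computed, repeated spots were averaged, and the 28489 of 30367 probes that 2 or more arrays read well above background entered 1 limma model (limma 3.58.1, R 4.3.3) of all 4 groups, with Benjamini-Hochberg adjustment over all of them and a threshold of 0.05. No probe carried several symbols, 18005 carried 1 and 12362 none. Near-identical arrays were averaged: DM+Sham 2 with 3, whose spread was 0.0199 beside a spot noise of 0.0829, and Control+RYGB 2 with 3, at 0.0512 beside 0.0777. The fit thus held 9 samples, with 5 degrees of freedom for error. The fit with scan day as a block kept DM+Sham 2 and 3 apart, since they were scanned on different days. The number of arrays limits the precision.

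A rise or fall needed the threshold in 1 direction with 75th percentile, median and quantile scaling. Named were all members, up to 4 genes per list with the smallest p for sham diabetes, for bypass in diabetics, for bypass in controls and for the interaction, and the 5 genes most like Pecam1, Kdr and Vegfa; Cd34, Cd93, Cyyr1, Eng, Ramp2, S1pr1, Sox7, Plvap and Nrp2 were named after their values were seen. A few genes that this rule names are not reported here. The members and lists were chosen with earlier results of these data known. Promoters and coordinates come from RefSeq tables of GRCr8, matched by symbol, and the file headers name rn4 for the array. The fits were tested on simulated data. Alternatives tried were median and quantile scaling, normexp background correction, the deposited table, the filter, unmerged arrays, a replicate block, scan day, shared scan, array weights and leaving out each sample; 2 were chosen after seeing the data, a 75th percentile over each probe once and the 3 scalings without DM+RYGB 2.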

Additional observations from a re-analysis of the deposited data

Results flagged for a closer look

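The effect of bypass differed between diabetic and control rats for 2 members. For Cldn5 the difference between the 2 effects was 2.16 (SE 0.18, limma adjusted p = 0.000964), with a higher level after bypass in diabetic rats (1.65) and a lower one after bypass in control rats (-0.52). For Tek it was 1.02 (SE 0.14, adjusted p = 0.00491), with 0.94 in diabetic rats and -0.08 in control rats. Markers of urothelium, proximal tubule and pericytes also passed this interaction, and their part in the differences of Cldn5 and Tek was not tested. No group held 4 samples, so no sample was tested as an outlier.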

How the results depend on the processing

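Limits: groups of 2 or 3 samples, 5 residual degrees of freedom, heart transcripts on DM+RYGB 2, Control+RYGB at 1 slide position, and a scaling that decides many signs. The members passing in the order DM+RYGB against Control+Sham, RYGB in control rats, RYGB in diabetic rats, diabetes in RYGB rats, diabetes in sham rats and interaction were 13, 4, 10, 10, 8 and 3. Median scaling gave 6, 2, 2, 3, 4 and 2 and quantile scaling 8, 1, 5, 6, 6 and 3. They were 5, 1, 1, 3, 4 and 2 with all 3 scalings, 10, 0, 3, 7, 0 and 1 with normexp, 9, 1, 5, 6, 7 and 3 with the deposited table, and 0, 0, 2, 6, 0 and 0 with scan day as a block. With array weights they were 11, 9, 5, 6, 8 and 3, with unmerged arrays 13, 7, 10, 11, 8 and 4, and with the 75th percentile over each probe once 11, 3, 3, 8, 8 and 3. With all 3 scalings and DM+RYGB 2 left out, 2, 1, 3 and 2 passed for DM+RYGB against Control+Sham, RYGB in diabetic rats, diabetes in RYGB rats and interaction. Leaving out each sample gave 11 to 13, 0 to 5, 3 to 9, 5 to 11, 0 to 8 and 2 to 3. Where a group was left with 1 sample, that sample was assumed to vary like the other groups. Replicate numbers did not pair the samples (correlations of same-numbered arrays from -0.444 to 0.455), and with the replicate block 13, 8, 10, 11, 8 and 4 passed.

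Of the single-probe values under alternatives, 1313 kept direction and side of the threshold, 250 lost it, 22 gained it and 53 reversed; the cause was not tested. For RYGB in diabetic rats, median scaling gave Ehd3 -0.31, Kdr -0.26, Pecam1 -0.59, Sox18 -0.36 and the Vegfa probes A_64_P099886 -0.11, A_64_P099893 -0.031 and A_64_P155983 -0.11. Quantile scaling gave Ehd3 -0.38, Kdr -0.20, Pecam1 -0.083, Sox18 -0.13 and A_64_P099886 -0.14, and the deposited table -0.36, -0.23, -0.094, -0.12 and -0.16. Pecam1 was -0.092 with normexp, -0.21 over each probe once, -0.021 with shared scan and -0.033 with scan day, and Sox18 -0.027 with scan day. For RYGB in control rats, median scaling gave Flt1 -0.26, Pecam1 -0.052, A_64_P099893 -0.0083 and A_64_P155983 -0.053. Flt1 was -0.085 with quantile scaling, -0.087 with the deposited table, -0.082 over each probe once and -0.18 with scan day, and A_64_P099886 was -0.038 with quantile scaling and -0.047 with the deposited table. Median scaling gave Kdr -0.011 for diabetes in RYGB rats, Emcn -0.022 and Pecam1 -0.013 for DM+RYGB against Control+Sham, and, for the interaction, A_64_P099891 -0.020, A_64_P099893 -0.023 and A_64_P155983 -0.056. Normexp gave interactions of 0.71 for Ehd3 and 0.45 for Sox18 and a Tek difference of -0.057 for diabetes in sham rats, and array weights an interaction of 0.010 for A_64_P099886. Leaving out each sample gave interactions of -0.47 to 0.17 for Sox18 (0.056 without the averaged Control+RYGB 2 and 3) and -0.085 to 0.066 for A_64_P099886 (0.00060 without those). It gave -0.56 to 0.44 for Cdh5 with diabetes in sham rats (0.055 without Control+Sham 3), -0.031 to 0.18 for Flt1 with RYGB in control rats, and, for RYGB in diabetic rats, -0.15 to 0.18 for Pecam1 and -0.080 to 0.56 for Sox18.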
